A study of Mus musculus with 12 samples.

Results

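Ilk, Parva, Parvb, Lims1, Lims2, Fermt2, Pxn, Vasp, Fblim1 and Tln1 encode integrin-linked kinase, its parvin and PINCH partners, and adaptors that join integrins to actin at focal adhesions. They were found by symbol in the count tables, where all 10 were present among 26264 genes, and all 10 passed the filter on low counts among the 17002 genes tested. RNA was measured in glomerulus-enriched preparations from male mice of 2 substrains of BALB/c. These were BALB/cAjcl, called Ajcl here, and BALB/cByJcl, called ByJcl, bought at 8 weeks of age from 1 breeder. For each substrain there were 3 untreated baseline libraries and 3 libraries made on Day 5 after a single intravenous dose of 10 mg/kg adriamycin (ADR, doxorubicin). All labels gave the same batch. The labels name no engineered allele in any group. They call the baseline mice untreated, while the protocol gives saline to control animals and the count columns call these libraries controls, so whether baseline mice had a saline injection is not settled by the sources used here. Baseline and Day 5 counts came in separate tables, so the effect of ADR and any difference between the tables cannot be told apart. Library Ajcl Day 5 replicate 1, which the study set aside for low glomerular purity, was left out of the main comparisons (11 libraries), and its values are given beside them.

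ILK is a pseudokinase that binds the cytoplasmic tails of beta integrins and forms, with a PINCH protein (Lims1 or Lims2) and a parvin (Parva or Parvb), a stable trimer called the IPP complex. Talin (Tln1) and kindlin-2 (Fermt2) bind the same integrin tails and switch integrins to their active state, while paxillin (Pxn), VASP and migfilin (Fblim1) recruit signalling and actin-assembly proteins to the site. In the glomerulus these adhesions hold podocyte foot processes to the basement membrane, and loss of Ilk or Tln1 from mouse podocytes is known to cause proteinuria. ADR is a podocyte toxin used to model focal glomerular injury.

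The libraries held between 42198416 and 54687045 counts. Markers of podocytes were high throughout, and no gene of the 9 marker lists was at 0 in any library. The summed level of 12 podocyte markers was 17647 to 23698 CPM (read counts scaled to library size by the trimmed mean of M values) in Ajcl at baseline and 13939 to 18995 CPM at Day 5. In ByJcl it was 22292 to 24696 CPM at baseline and 11258 to 14841 CPM at Day 5, where 11 of the 12 markers were called, 10 lower and Cdkn1c higher (edgeR, Benjamini-Hochberg). Proximal tubule markers varied widely within groups, and the 8 of them summed to 931 to 3541 CPM in Ajcl and 371 to 1640 CPM in ByJcl at baseline, and to 1365 to 1965 CPM against 341 to 1501 CPM at Day 5, with overlap at both times and none of the 8 called between substrains. The set-aside Ajcl library had 3646 CPM of these markers and 12695 CPM of podocyte markers. In such mixed tissue, fewer cells of a type and less RNA per cell cannot be told apart.

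**Figure D1:**
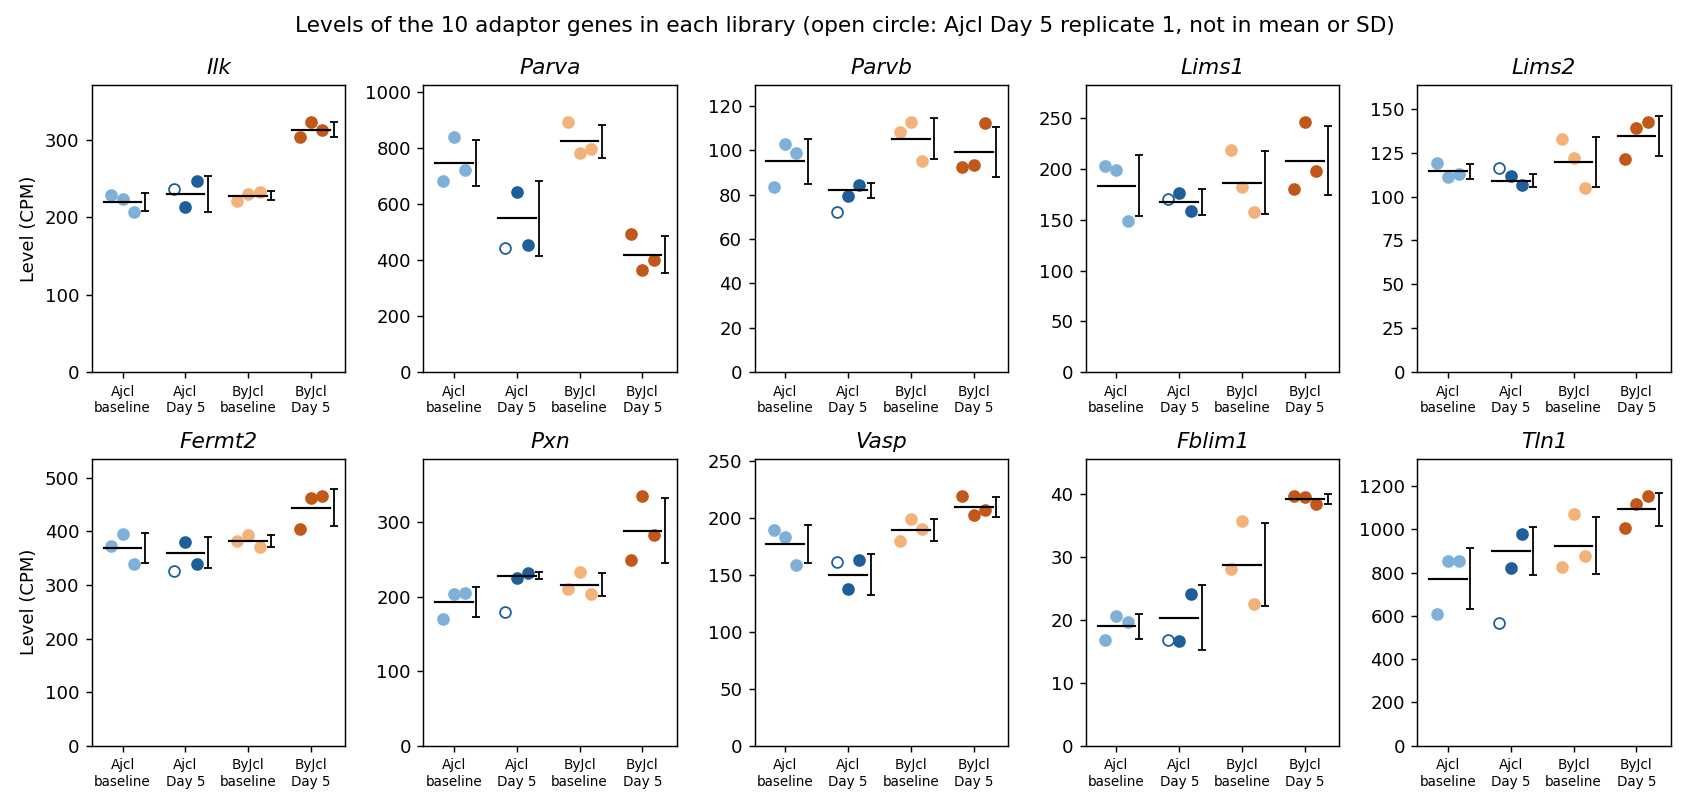
Level of each of the 10 genes in each library (CPM, linear axis from 0) for the 4 groups, with the group mean as a black line and bars of 1 SD beside it. The 3 ByJcl Day 5 libraries lie above every Ajcl Day 5 library for 9 genes, and Parva is the exception.

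Levels were compared between genes per kilobase of merged exons (GRCm39, GENCODE). By this length Tln1 and Ilk led in every group and Fblim1 was lowest. In Ajcl at baseline Tln1 was at 78.7 ± 14.3 CPM per kb (SD, n = 3), Ilk at 74.8 ± 3.97 CPM per kb and Fermt2 at 64.3 ± 4.88 CPM per kb, and the libraries of Tln1 and Ilk overlapped while those of Ilk and Fermt2 did not. Parva (39.1 ± 4.26 CPM per kb) and Lims2 (34.6 ± 1.26 CPM per kb) followed and overlapped. Vasp was at 30.0 ± 2.80 CPM per kb, and Parvb, Lims1 and Pxn lay between 19.5 and 21.2 CPM per kb, each overlapping its neighbour in the order. Fblim1 was at 2.48 ± 0.257 CPM per kb, below all others. The order, apart from the last place of Fblim1, depended on the length used. The merged exons of Parva span 19131 bases and its Ensembl canonical transcript 4507 bases. With canonical lengths, an alternative added after the values were seen, Parva led both baseline groups. It was at 166 ± 18.1 CPM per kb in Ajcl and 183 ± 13.2 CPM per kb in ByJcl. In ByJcl at Day 5 it came after Ilk, Tln1 and Fermt2 with 93.0 ± 14.6 CPM per kb. By the same lengths Tln1 was at 91.9 ± 16.7 CPM per kb in Ajcl at baseline, after Parva, Ilk and Fermt2. Its libraries overlapped those of Fermt2.

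Within the IPP complex, Ilk rose and Parva fell in ByJcl after ADR, while Parvb, Lims1 and Lims2 did not pass the test in any comparison. Ilk, the scaffold of the complex (chromosome 7, 105385782 to 105392182, plus strand, GRCm39), is printed first. RefSeq promoters (250 bases before to 50 after a start site, build GRCm38.p6) were given for 7 of the 10 genes, 11 promoters in all, with none for Parva, Lims2 or Pxn. Of the 2 Ilk promoters, the downstream one (chr7:105736475-105736774, plus strand) is shown because Ilk was called, with matches to the GC box letters GGGCGG in capitals.
Ilk promoter: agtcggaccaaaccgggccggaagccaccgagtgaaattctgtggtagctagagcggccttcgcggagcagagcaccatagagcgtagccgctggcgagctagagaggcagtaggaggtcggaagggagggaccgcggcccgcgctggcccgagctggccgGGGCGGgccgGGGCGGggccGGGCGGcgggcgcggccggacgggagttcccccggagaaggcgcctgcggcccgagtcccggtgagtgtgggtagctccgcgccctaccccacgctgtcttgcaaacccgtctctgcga
It held 3 such matches, from 89 to 69 bases before the start site. GGGCGG on either strand was present in 35.7% of 32851 RefSeq promoters of this length and in 5 of the 11 promoters of these genes, in all of 5 genes.

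At baseline Ilk was at 228, 224 and 206 CPM in Ajcl and at 221, 230.2 and 232 CPM in ByJcl. At Day 5 it was at 213 and 246 CPM in Ajcl, with 236 CPM in the set-aside library, and at 304, 322 and 313 CPM in ByJcl. The 3 ByJcl Day 5 libraries stood above all 9 others, while the other groups overlapped. The log2 fold change (log2FC) from baseline to Day 5 was 0.49 in ByJcl (SE 0.10, 1.40-fold, adjusted p = 0.0115, edgeR quasi-likelihood test with Benjamini-Hochberg adjustment) and 0.09 in Ajcl (SE 0.11, adjusted p = 0.866, edgeR). The ByJcl call held without each library in turn (log2FC 0.47 to 0.52). Between substrains at Day 5 the log2FC was 0.47 (SE 0.11), which edgeR did not call (adjusted p = 0.118; 0.0643 with all 12 libraries), while DESeq2 did (adjusted p = 0.00271). The difference between the ADR responses of the substrains was 0.40 (SE 0.15, adjusted p = 0.620, edgeR) and did not pass. Ilk shares exonic bases with Rrp8 and Taf10 on the opposite strand. These were low beside it, at 23.4 and 37.9 CPM on average in ByJcl Day 5 libraries against 313 CPM of Ilk, and neither was called (Taf10 log2FC 0.37, adjusted p = 0.0512, edgeR). The summed smooth muscle markers moved with Ilk. The 6 of them came to 1074 to 1176 CPM in ByJcl at Day 5 and to 803 to 896 CPM in the other 8 of the 11 libraries. All 6 had a log2FC above 0 in ByJcl after ADR and 1 was called. Over the 11 libraries Ilk had a Pearson r of 0.92 with this sum, and 0.14 for deviations from group means. In ByJcl group means Tagln had the widest change, from 126.8 to 308.3 CPM, and Des was also higher at Day 5. Acta2 (105.2 to 111.3 CPM), Myh11 (114.9 to 121.6 CPM) and Myl9 (219.5 to 231.3 CPM) changed little. Cnn1 was low, at 0.89 and 1.69 CPM. In Ajcl at baseline Acta2 (124.7 CPM) and Myl9 (236.9 CPM) were above their ByJcl Day 5 means, unlike Ilk. The parietal epithelium sum was also apart in ByJcl at Day 5 and had an r of 0.76 with Ilk (0.15 for deviations). For deviations from group means Ilk had r of 0.71 with the 5 platelet, -0.63 with the podocyte and 0.57 with the immune markers. The part of these markers in the result was not tested.

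Parva encodes alpha-parvin, the actin-binding arm of the complex (chromosome 7, 112026712 to 112190915, plus strand). Its levels at baseline were 683, 839 and 722 CPM in Ajcl and 892, 782 and 798 CPM in ByJcl. At Day 5 they were 645 and 456 CPM in Ajcl, 443 CPM in the set-aside library, and 493, 365 and 399 CPM in ByJcl. In both substrains every Day 5 library was below every baseline library of the same substrain. Parva fell in ByJcl, to 0.518 of baseline (log2FC -0.95, SE 0.16, adjusted p = 0.00604, edgeR with Benjamini-Hochberg adjustment), and the call held without each library in turn (log2FC -1.09 to -0.85). In Ajcl the log2FC was -0.43 (SE 0.18, adjusted p = 0.467, edgeR). At Day 5 the substrains overlapped (log2FC -0.36, SE 0.18, adjusted p = 0.404, edgeR), and the difference of the responses was -0.52 (SE 0.24, adjusted p = 0.627, edgeR).

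Parva moved with the podocyte markers library by library. Per 1000 CPM of the summed 12 podocyte markers, Parva was at 37.0 ± 1.63 CPM in Ajcl at baseline (SD, n = 3), 33.3 ± 0.892 CPM in Ajcl at Day 5 (SD, n = 2), 35.2 ± 0.835 CPM in ByJcl at baseline (SD, n = 3) and 33.0 ± 0.570 CPM in ByJcl at Day 5 (SD, n = 3). This quotient ran from 32.4 to 38.7 over all 12 libraries, while Parva itself ran from 365 to 892 CPM. The sum holds Cdkn1c, whose group mean in ByJcl went from 1334 to 2629 CPM while those of the other markers fell. The level and direction of the quotient rest on a sum that includes it, and a sum without it was not used. Over the 11 libraries the log2 levels of Parva and of the marker sum had a Pearson r of 0.99 and a Spearman rho of 0.99, with r of 0.98 without the 2 libraries farthest from the median and r of 0.98 for deviations from group means. The comparison was added after the values were seen and is given as a description, with no test. Of the other 9 genes none had an r above 0.21 with the marker sum, and Ilk had -0.83. The summed markers of glomerular endothelium moved with Parva as well, with an r of 0.84, and 0.53 for deviations from group means. The 8 of them summed to 8071 to 9711 CPM in ByJcl at baseline and 4984 to 7019 CPM at Day 5, where 2 were called lower. In ByJcl group means Pecam1 (637 to 761 CPM) and Cdh5 (483 to 519 CPM) were higher at Day 5. The other genes of this list were lower, Ehd3 from 2708 to 1510 CPM and Kdr from 1924 to 1234 CPM. The part of either list in the fall of Parva was not tested.

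**Figure D2:**
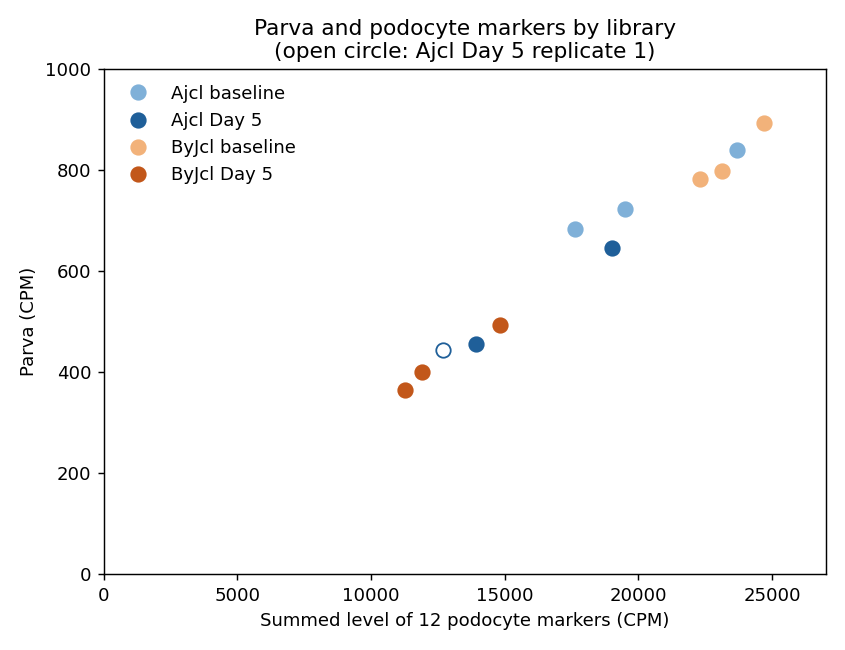
Parva (CPM) against the summed level of 12 podocyte markers (CPM) in the 12 libraries, coloured by group, both axes linear from 0. The points lie close to 1 line through the origin, with 32.4 to 38.7 CPM of Parva per 1000 CPM of podocyte markers. The sum includes Cdkn1c, whose mean was higher at Day 5.

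Parvb (chromosome 15, 84116232 to 84199889, plus strand) encodes beta-parvin, which takes the place of alpha-parvin in some complexes. It was at 83.4, 103 and 98.9 CPM in Ajcl and 108, 113 and 95.1 CPM in ByJcl at baseline. On Day 5 it was at 79.5 and 84.3 CPM in Ajcl, 72.1 CPM in the set-aside library, and 92.4, 93.5 and 112 CPM in ByJcl. All ByJcl Day 5 libraries were above all Ajcl Day 5 libraries, but ByJcl Day 5 overlapped its own baseline. The log2FC in ByJcl after ADR was -0.06 (SE 0.12, adjusted p = 0.800, edgeR) and the Day 5 difference between substrains was 0.31 (SE 0.13, adjusted p = 0.332, edgeR).

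The count of Parvb as a percentage of that of Parva in the same library was 12.7 ± 0.848% in Ajcl (SD, n = 3) and 12.8 ± 1.38% in ByJcl (SD, n = 3) at baseline. By Day 5 the Ajcl pair held 12.3% and 18.5%, and the ByJcl libraries 18.8%, 25.6% and 28.2%. The ByJcl Day 5 libraries were thus above every other library of the 11. Over both substrains the mean log2 ratio was -2.97 ± 0.11 at baseline (SD, n = 6) and -2.33 ± 0.47 at Day 5 (SD, n = 5), a difference of 0.64 (two-sided exact permutation p = 0.0130, adjusted p = 0.0779 over the 6 ratio tests made, with 0.00433 the smallest p that 6 against 5 allows). With all 12 libraries the difference was 0.59 and passed (adjusted p = 0.0390, exact permutation test), and without ByJcl baseline replicate 2 it was 0.68 and passed (adjusted p = 0.0476, exact permutation test). Within substrains it was 0.25 in Ajcl and 0.90 in ByJcl. The ratio used counts of genes of unequal length, so it shows change between libraries and not which protein was the more abundant. The podocyte marker sums given above moved with this ratio too, and their part in it was not tested.

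**Figure D3:**
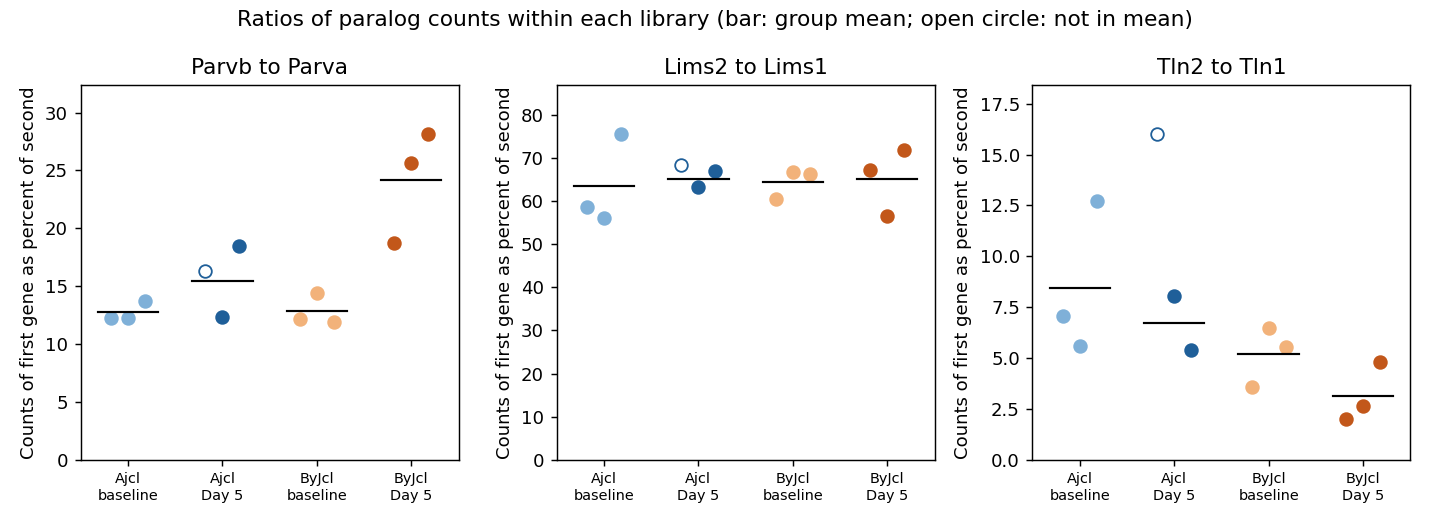
Count of 1 paralog as a percentage of the other within each library, for Parvb to Parva, Lims2 to Lims1 and Tln2 to Tln1, with group means as black lines and axes from 0. Parvb to Parva is 18.8% to 28.2% in ByJcl at Day 5 and 11.9% to 14.4% in the 6 baseline libraries, and Lims2 to Lims1 stays between 56.0% and 75.6% in all 12.

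Lims1 (chromosome 10, 58159231 to 58260527, plus strand) and Lims2 (chromosome 18, 32055343 to 32091674, plus strand) encode PINCH1 and PINCH2, LIM-domain proteins that bind ILK in exclusion of each other. Lims1 was at 203, 199 and 149 CPM in Ajcl and 219, 182 and 158 CPM in ByJcl at baseline. Day 5 levels were at 177 and 159 CPM in Ajcl, 170.4 CPM in the set-aside library, and 180.3, 246 and 198 CPM in ByJcl. Day 5 and baseline overlapped in each substrain, and only the Day 5 groups were apart, narrowly. Lims2 was at 119, 111 and 113 CPM in Ajcl and 133, 122 and 105 CPM in ByJcl at baseline, then at 112 and 106 CPM in Ajcl at Day 5, 116 CPM in the set-aside library, and 121, 139 and 142 CPM in ByJcl at Day 5. Its groups also overlapped between baseline and Day 5 in each substrain. After ADR in ByJcl the log2FC was 0.18 for Lims1 (SE 0.17, adjusted p = 0.535, edgeR) and 0.19 for Lims2 (SE 0.10, adjusted p = 0.270, edgeR). The Lims2 to Lims1 ratio differed by 0.03 on the log2 scale between Day 5 and baseline (exact permutation p = 0.710) and by 0.02 between substrains (exact permutation p = 0.788), against SDs of 0.12 to 0.17.

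Neither integrin activator was called in any comparison by edgeR over the 11 libraries. Fermt2 (chromosome 14, 45696239 to 45767770, minus strand) was at 373, 395 and 339.6 CPM in Ajcl and 382, 394 and 371 CPM in ByJcl at baseline. Its Day 5 levels were 380.1 and 339.5 CPM in Ajcl, 325 CPM in the set-aside library, and 404, 461 and 465 CPM in ByJcl. The ByJcl Day 5 libraries stood above all others, yet the log2FC after ADR in ByJcl was 0.24 (SE 0.10) and was not called (adjusted p = 0.156, edgeR). Tln1 (chromosome 4, 43531513 to 43562691, minus strand) was at 609.8, 854 and 852 CPM in Ajcl and 823, 1072 and 876 CPM in ByJcl at baseline, and at 821 and 979 CPM in Ajcl, 568 CPM in the set-aside library, and 1006, 1116 and 1153 CPM in ByJcl at Day 5. The Day 5 substrain groups did not overlap, while baseline and Day 5 did in each substrain. Its log2FC was 0.27 in ByJcl after ADR (SE 0.16, adjusted p = 0.305, edgeR), 0.28 between substrains at baseline (SE 0.16, adjusted p = 0.630, edgeR) and 0.30 at Day 5 (SE 0.18, adjusted p = 0.470, edgeR; 0.49 with all 12 libraries, adjusted p = 0.229, edgeR). Creb3 overlaps Tln1 on the genome and rose in ByJcl after ADR (log2FC 0.95, adjusted p = 0.00521, edgeR), from 55.7 to 106 CPM on average, against 1092 CPM of Tln1.

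Tln2, the other talin gene, had a lower mean count beside Tln1 in ByJcl than in Ajcl, a difference that did not pass the test over the 11 libraries. Its count was 5.59% to 12.7% of that of Tln1 in Ajcl and 3.59% to 6.45% in ByJcl at baseline, and 5.38% and 8.06% against 1.99% to 4.80% at Day 5. The mean log2 ratio was -3.76 ± 0.50 in Ajcl (SD, n = 5) and -4.70 ± 0.65 in ByJcl (SD, n = 6), a difference of -0.94 (exact permutation p = 0.0260, adjusted p = 0.0779 over the 6 tests). It passed without ByJcl baseline replicate 2 (-1.09, adjusted p = 0.0476, exact permutation test). With all 12 libraries it was -1.12 and passed (adjusted p = 0.0390, exact permutation test), the set-aside library having the highest percentage, 16.0%. The 2 highest percentages, 12.7% and 16.0%, were in the 2 libraries with the most proximal tubule marker RNA, 3541 and 3646 CPM. The part of tubular RNA in this ratio was not tested.

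Among the adaptors that gather on activated integrins, Pxn rose in ByJcl after ADR and Fblim1 showed the widest gap between substrains. Pxn (chromosome 5, 115644691 to 115694047, plus strand), the scaffold for focal adhesion kinase signalling, was at 170.5, 203 and 205 CPM in Ajcl and 211, 233 and 204 CPM in ByJcl at baseline. After ADR it was at 225 and 232 CPM in Ajcl, 180.0 CPM in the set-aside library, and 249, 335 and 282 CPM in ByJcl. The ByJcl Day 5 libraries were above all others, and the Ajcl Day 5 pair was above Ajcl baseline only as long as the set-aside library stayed out. In ByJcl the log2FC was 0.45 (SE 0.12, 1.36-fold, adjusted p = 0.0403, edgeR with Benjamini-Hochberg adjustment) and in Ajcl 0.26 (SE 0.14, adjusted p = 0.577, edgeR). The ByJcl call was close to the threshold. It was lost with all 12 libraries (adjusted p = 0.0770, edgeR) and with only the groups compared (adjusted p = 0.0550, edgeR). It was also lost without any 1 of 5 ByJcl libraries, baseline replicates 1, 2 and 3 and Day 5 replicates 2 and 3 (adjusted p = 0.0522 to 0.153, edgeR). Without Day 5 replicate 2 the log2FC was 0.33. The summed markers of parietal epithelium moved with Pxn. Their 4 genes came to 412 to 852 CPM in ByJcl at Day 5 and to 251 to 406 CPM in the other 8 libraries. Of these genes 2 were called higher in ByJcl after ADR. Pxn had a Pearson r of 0.86 with this sum over the 11 libraries and of 0.77 for deviations from group means. In ByJcl group means Akap12 went from 183 to 452 CPM and Cldn1 from 39.9 to 67.2 CPM. Cldn2 (64.2 to 53.0 CPM) and Pax8 (25.9 to 21.2 CPM) went the other way. The part of these markers in the Pxn result was not tested.

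Vasp (chromosome 7, 18988769 to 19006831, minus strand) encodes an actin filament elongation factor. It was at 190.0, 183 and 159 CPM in Ajcl and 179.9, 199.6 and 190.3 CPM in ByJcl at baseline, and at 138 and 163 CPM in Ajcl, 162 CPM in the set-aside library, and 219.5, 203 and 207 CPM in ByJcl at Day 5. The Day 5 groups were apart, with ByJcl above its baseline and Ajcl overlapping its own. The Day 5 difference between substrains was 0.51 on the log2 scale (SE 0.13), not called by edgeR (adjusted p = 0.139) and called by DESeq2 (adjusted p = 0.0102). The log2FC after ADR was -0.22 in Ajcl (SE 0.12, adjusted p = 0.640, edgeR) and 0.17 in ByJcl (SE 0.11, adjusted p = 0.356, edgeR), and the difference of the responses was 0.39 (SE 0.17, adjusted p = 0.620, edgeR). Vasp had a Pearson r of 0.80 with the summed immune markers over the 11 libraries and of 0.76 for deviations from group means, and their part in its Day 5 difference was not tested.

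Fblim1 (chromosome 4, 141303367 to 141333437, minus strand) encodes migfilin, a LIM protein that binds kindlin-2, filamin and VASP. It was the least abundant of the 10 genes, at 16.8, 20.6 and 19.6 CPM in Ajcl and 28.1, 35.7 and 22.6 CPM in ByJcl at baseline. At Day 5 it was at 16.7 and 24.1 CPM in Ajcl, 16.8 CPM in the set-aside library, and 39.7, 39.6 and 38.4 CPM in ByJcl. ByJcl was above Ajcl at both times with no overlap, and it was the only 1 of the 10 genes apart at baseline. The log2FC between substrains was 0.62 at baseline (SE 0.18, 1.53-fold, adjusted p = 0.503, edgeR) and 0.97 at Day 5 (SE 0.21, 1.95-fold, adjusted p = 0.104, edgeR), so neither passed over the 11 libraries. At Day 5 it passed with all 12 libraries (log2FC 1.06, adjusted p = 0.0385, edgeR) and with DESeq2 (adjusted p = 0.00150). The value rested on which of the Ajcl Day 5 pair was kept: without replicate 3 the log2FC was 1.29 (adjusted p = 0.0380, edgeR) and without replicate 2 it was 0.71 (adjusted p = 0.988, edgeR). Each of these fits has 1 Ajcl Day 5 library, which is assumed to vary like the libraries of the other groups. Over the 11 libraries Fblim1 had a Pearson r of 0.76 with the summed mesangial and 0.71 with the summed smooth muscle markers. It had 0.63 with the immune and -0.66 with the distal nephron sum. For deviations from group means these r were 0.44, -0.50, 0.018 and -0.14. The mesangial sums overlapped at Day 5, at 2251 to 2511 CPM in Ajcl and 2311 to 3148 CPM in ByJcl. The part of these markers in the Fblim1 difference was not tested. After ADR in ByJcl the log2FC of Fblim1 was 0.48 (SE 0.18, adjusted p = 0.119, edgeR). Of its 2 RefSeq promoters, the upstream one (chr4:141606003-141606302, minus strand, GRCm38.p6) is printed because it was the single promoter of the 11 with the AP-1 letters TGACTCA or the TEAD letters GGAATG, read on either strand, in capitals.
Fblim1 promoter: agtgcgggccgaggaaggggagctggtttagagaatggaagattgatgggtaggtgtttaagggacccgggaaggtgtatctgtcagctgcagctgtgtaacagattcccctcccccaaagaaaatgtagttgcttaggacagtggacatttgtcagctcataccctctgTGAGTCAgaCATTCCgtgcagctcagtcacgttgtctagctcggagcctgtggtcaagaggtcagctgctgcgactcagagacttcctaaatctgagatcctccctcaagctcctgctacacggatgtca
The AP-1 match began 80 bases and the TEAD match 71 bases before the start site, without overlap. TGACTCA was present in 5.20% and GGAATG in 14.7% of the 32851 promoters. The fourth motif searched, the E-box CACGTG, was in 2 of the 11 promoters, 1 of Ilk and 1 of Lims1, and in 7.15% of all. A match describes letters only.

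Taken over all 10 genes, the baseline comparison of the substrains gave no call, against 0.159% of all tested genes. All 10 log2FC were above 0, beside 51.4% of all genes, with a median of 0.14 beside 0.0084 over all tested genes, and 1 gene had an unadjusted p below 0.05, beside 8.34% of all genes. One gene, Fblim1, had every ByJcl library above every Ajcl library, beside 8.22% of all genes. Some marker lists also lay to 1 side at baseline, with none of their genes called. All 12 podocyte (median log2FC 0.22), 6 mesangial (0.22) and 8 immune markers (0.75) were above 0, and all 8 proximal tubule (-0.78) and 6 distal nephron markers (-1.27) were below 0. Their part in the values of the 10 genes was not tested.

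At Day 5 the 10 genes again gave no call in edgeR, beside 0.165% of all genes, with 7 at an unadjusted p below 0.05, beside 14.0% of all genes. Here 9 of the 10 had every ByJcl library above every Ajcl library, both with the 11 libraries, where 15.1% of all genes did, and with all 12, where 9.03% did. Their median log2FC was 0.34, beside 0.00194 over all tested genes. With all 12 libraries edgeR called Fblim1, beside 0.433% of all genes, and DESeq2 called Fblim1, Ilk and Vasp over the 11, beside 3.15%. Marker sums of other cells were also apart between these groups. Smooth muscle markers summed to 810 to 832 CPM in Ajcl and 1074 to 1176 CPM in ByJcl, with 1 of 6 called higher, the 4 parietal epithelium markers to 352 to 358 CPM and 412 to 852 CPM, with none called, and the 8 immune markers to 32.8 to 69.7 CPM and 73.3 to 131 CPM, with none called. In the set-aside library the smooth muscle sum lay between those of the groups, and the parietal and immune sums were 369 and 36.7 CPM. Single genes of these lists differed in size and direction. Group means in Ajcl and ByJcl were 142 and 308 CPM for Tagln and 185 and 452 CPM for Akap12. Those of Lyz2 were 19.7 and 52.5 CPM. Cldn2 (97.8 and 53.0 CPM), Pax8 (24.3 and 21.2 CPM) and Csf1r (18.4 and 12.8 CPM) had lower means in ByJcl. The other genes of these lists had higher means in ByJcl. The 6 distal nephron markers were apart the other way, at 808 to 1119 CPM in Ajcl (2034 CPM in the set-aside library) and 94.2 to 504 CPM in ByJcl, with a median log2FC of -1.33 and none called. All 8 proximal tubule markers also had a log2FC below 0 (median -0.95, and -1.28 with all 12 libraries), with none called. Of the 12 podocyte markers 11 had a log2FC below 0 (median -0.59), with 7 at an unadjusted p below 0.05 and none called. The part of these markers in the Day 5 differences was not tested.

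After ADR in Ajcl 0 of the 10 genes were called, beside 0.312% of all genes, and 1 gene, Parva, had an unadjusted p below 0.05, beside 9.80% of all genes. In edgeR over all 12 libraries and in DESeq2 the count was 0 too. Their median log2FC was -0.04. DESeq2 called 1.77% of all genes and edgeR over all 12 libraries 0.325%. Pxn lay wholly above baseline in Ajcl, beside 13.3% of all genes, and Parva wholly below, beside 12.3%. With the set-aside library added Pxn overlapped and Parva did not, beside 6.51% of all genes. After ADR in ByJcl 3 of the 10 were called, Ilk and Pxn higher and Parva lower, beside 10.6% of all genes (5.75% higher, 4.83% lower). The 1800 genes behind that percentage were 841, 730 and 1063 without ByJcl baseline replicates 1, 2 and 3 and 680 without ByJcl Day 5 replicate 2. In that comparison 5 genes (Ilk, Fermt2, Pxn, Vasp and Fblim1) lay wholly above baseline, beside 15.9% of all genes, and Parva wholly below, beside 17.7%. The ADR comparisons of a substrain and the Day 5 comparison share libraries, so their values are not independent of each other.

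The test of whether ADR acted unequally in the 2 substrains called 0 of the 10 genes and 0% of all tested genes in edgeR, with 2 of the 10 (Ilk and Vasp) and 1363 of all genes at an unadjusted p below 0.05. DESeq2 called 0.129% of all genes and no member. A call in ByJcl without one in Ajcl, which had 2 libraries at Day 5, is therefore not shown to be a difference between the substrains.

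**Figure D4:**
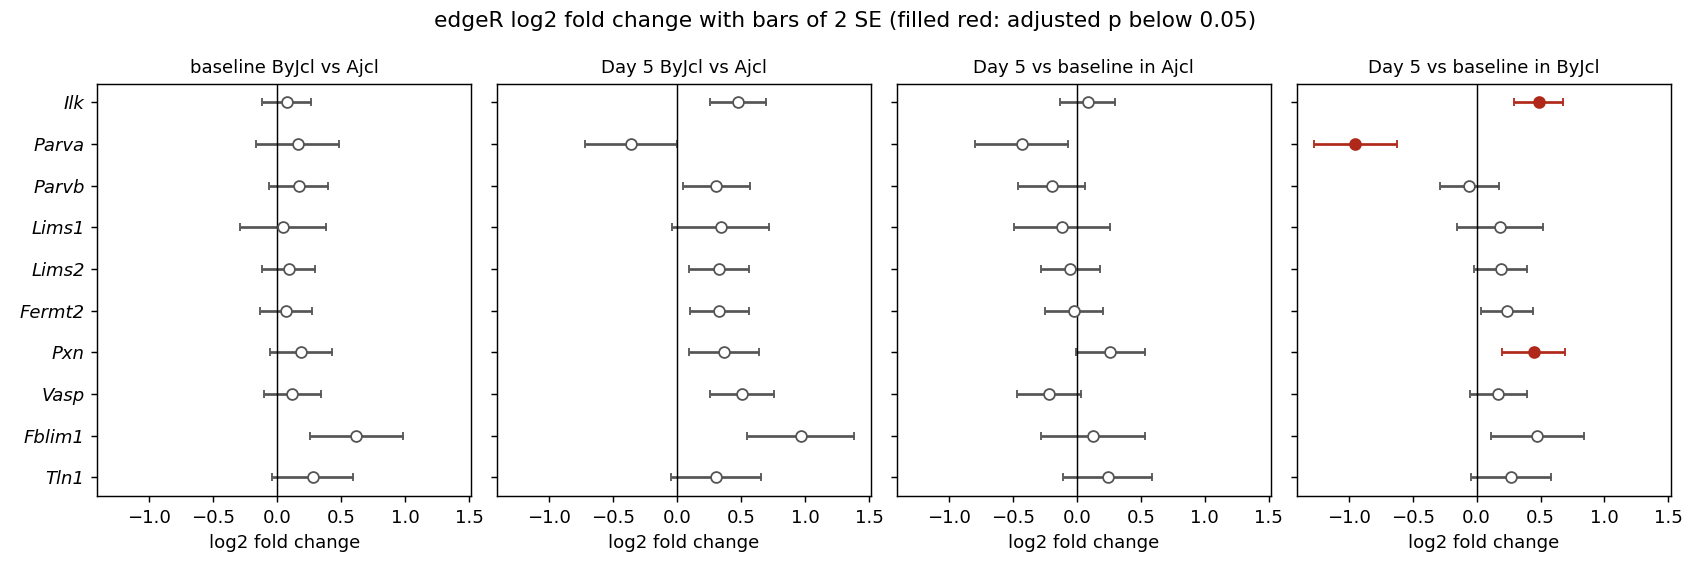
Log2 fold change of each gene (edgeR, 11 libraries) in the 4 comparisons, with bars of 2 SE and calls at an adjusted p below 0.05 filled in red. Calls appear in ByJcl after ADR, for Ilk (0.49), Pxn (0.45) and Parva (-0.95), and at Day 5 the 9 genes other than Parva are above 0.

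Other genes of integrin adhesions were followed in 6 lists with 82 genes, all of them tested. After ADR in ByJcl 16 were called (19.5%, beside 10.6% of all genes), 9 higher and 7 lower. Of these, Pdlim7, Itgb5, Itga6, Pak1 and Fyn were called without each library in turn. The other 11 lost the call without 1 to 8 of the 11 libraries (adjusted p up to 0.146, edgeR), and the count was 7, 6 and 8 without ByJcl baseline replicates 1, 2 and 3 and 6 without ByJcl Day 5 replicate 2. With all 12 libraries Kank1, Pfn1, Tns3 and Akt2 were not called (adjusted p = 0.0696, 0.0638, 0.133 and 0.0558, edgeR). In the same comparison 10 of 12 podocyte and 2 of 8 glomerular endothelium markers were called lower, while 2 of 4 parietal epithelium markers and 1 marker each of podocytes, smooth muscle, mesangium and immune cells were called higher. The part of these markers in the changes of the pathway genes was not tested. In the other 3 comparisons and in the test of unequal response edgeR called 0 of the 82, with 5 at an unadjusted p below 0.05 at baseline (6.10%, beside 8.34% of all genes), 20 at Day 5 (24.4%, beside 14.0%), 8 after ADR in Ajcl (9.76%, beside 9.80%) and 12 in the test of unequal response (14.6%, beside 8.02%). The baseline and Ajcl shares were thus no higher than those of all genes. DESeq2 called 1 of the 82 at baseline (beside 0.594% of all genes), 10 at Day 5 (beside 3.15%), 2 in Ajcl (beside 1.77%) and 0 in the test of unequal response (beside 0.129%).

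Integrin subunits moved both ways in ByJcl after ADR, 3 of 15 higher and 2 lower, beside 5.75% of all genes higher and 4.83% lower. Itgb1, the beta subunit shared by the main podocyte and mesangial integrins, rose from 1255 ± 76.3 to 1957 ± 217 CPM (SD, n = 3 each, log2FC 0.67, adjusted p = 0.00999, edgeR with Benjamini-Hochberg adjustment). Itga5, part of the fibronectin receptor, rose with a log2FC of 0.46 (adjusted p = 0.0373, edgeR). Itgb3, of the vitronectin receptor, rose by 1.72 on the log2 scale (adjusted p = 0.0342, edgeR), its 30.2 ± 24.6 CPM at Day 5 (SD, n = 3) having an SD almost as large as its mean. Without ByJcl Day 5 replicate 2 its log2FC was 0.82 and was not called (adjusted p = 0.0970, edgeR). Itgb5 fell from 843 ± 39.8 to 413 ± 27.4 CPM (adjusted p = 0.00307, edgeR), and Itga6, a laminin receptor subunit, fell by 0.59 on the log2 scale (adjusted p = 0.00785, edgeR). In Ajcl the log2FC of Itga6 was -0.58, which DESeq2 called (adjusted p = 0.00488) and edgeR did not (adjusted p = 0.102).

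Actin linkers had 5 of 23 genes higher and 1 lower, against the same background of 5.75% and 4.83%. Actn1, an actin crosslinker, rose with a log2FC of 0.99 (adjusted p = 0.0130), Pdlim7 with 0.64 (adjusted p = 0.0118), Csrp1 with 0.57 (adjusted p = 0.0173), Pfn1, the actin monomer-binding profilin, with 0.55 (adjusted p = 0.0303) and Zyx, which binds VASP, with 0.45 (adjusted p = 0.0266, all edgeR). Tns3, a tensin, fell by 0.63 on the log2 scale (adjusted p = 0.0437, edgeR). Between substrains at Day 5 Pdlim7 and Zyx from this list and Itga5 were called with all 12 libraries (adjusted p = 0.0280, 0.0277 and 0.0270, edgeR) and not with 11 (0.0739, 0.0822 and 0.0823, edgeR).

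Among partners of focal adhesion kinase and paxillin, 2 of 16 were lower and none higher in ByJcl after ADR, a share close to the 10.6% of all genes called. Pak1, a kinase downstream of Rac and Cdc42, fell from 372 ± 58.6 to 124 ± 16.8 CPM (SD, n = 3 each, log2FC -1.55, adjusted p = 0.00163, edgeR), and in Ajcl it was at 378 ± 54.6 and 189.9 ± 59.4 CPM (log2FC -0.98, adjusted p = 0.118, edgeR; 0.00131, DESeq2). With 1 Ajcl Day 5 library left, assumed to vary like the other groups, its log2FC in Ajcl was -1.32 without replicate 2 (adjusted p = 0.0429, edgeR) and -0.73 without replicate 3 (adjusted p = 1, edgeR). Fyn, a Src-family kinase that acts on nephrin, fell by 0.57 on the log2 scale (adjusted p = 0.00971, edgeR). Kank1 was the single call among 10 kindlin, talin and talin-binding genes, no more than that background, with a log2FC of -0.54 (adjusted p = 0.0218, edgeR). Of 10 ILK downstream genes Ppp1r14b, a phosphatase inhibitor, rose (log2FC 0.75, adjusted p = 0.0271, edgeR) and Akt2 fell by 0.41 (adjusted p = 0.0285, edgeR). None of the 8 IPP partners was called, and the smallest adjusted p among them was 0.0713, for Nck2 (log2FC -0.35, edgeR). Parvg, the blood-cell parvin, averaged 0.531 ± 0.0756 CPM for Ajcl and 1.53 ± 0.441 CPM for ByJcl at baseline (SD, n = 3 each), with a log2FC of 1.54 (adjusted p = 0.187, edgeR; 0.0103, DESeq2). The 8 immune markers moved the same way, at 41.0 to 65.2 CPM in Ajcl and 69.7 to 118 CPM in ByJcl, and their part in the Parvg difference was not tested.

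Across the 11 libraries all 36 pairs of the genes other than Parva had a Pearson r above 0 for log2(CPM + 1), with a median of 0.59, while Parva had an r below 0 with 8 of the 9 others. For deviations from group means the 36 pairs had a median r of 0.18, and 12 of them were below 0, down to -0.32 for Pxn and Vasp. These r describe libraries that share groups and carry no test. Among 10070 genes with a mean of at least 10 CPM, the 5 whose levels were most like the mean standardised level of the 10 genes were Cap1 (r = 0.92), Nfkb1 (0.91), Itga5 (0.91), Ptgir (0.91) and Ptpn12 (0.91). Among the genes most like Ilk were Tagln2 and Lmna (r = 0.99 each), and those most like Fblim1 were Arhgdia, Itga5 and Rhbdf1 (r = 0.97, 0.97 and 0.95). Among those most like Parva, added after the values were seen, were Astn2 and Vtcn1 (r = 0.99 each).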

How the data were processed

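Glomeruli were captured with magnetic beads and poly(A) RNA was sequenced, with strand-specific library preparation per the labels, in 12 libraries. The authors trimmed reads with Trimmomatic v0.39 after FastQC v0.11.9, aligned them to GRCm39 with STAR v2.7.10a and deposited whole-number counts per gene from featureCounts (Subread v2.0.3), 1 table for baseline and 1 for Day 5. The annotation, the strand option of featureCounts and whether reads or fragments were counted are not given in the sources used here. Counts below 50 were even in 77.1% to 82.9% of cases per library. Halving all counts changed no call of a member.

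Members, lists and tests were chosen with earlier results of these data known. Counts were tested with edgeR 4.0.16 (limma 3.58.1, R 4.3.3; quasi-likelihood, trimmed mean of M values, filterByExpr, 1 coefficient per group, 7 residual degrees of freedom, Benjamini-Hochberg over 17002 genes, threshold 0.05) over 11 libraries. The main design kept the study's choice of libraries, and edgeR stood in for its DESeq2, which was run as an alternative (1.42.0). Adjusted p-values without a tool named beside them are from edgeR. Ratios used counts plus 0.5 and exact permutation tests over libraries (SciPy 1.17.1), adjusted over 6 tests. The labels do not say that each library is 1 animal, so p-values measure the spread between libraries. In pathway lists, genes called in a comparison are named. Those of smallest p, picked where fewer than 3 were called, are named only in part. Some genes that the rule for likeness would name are not reported here. Alternatives were all 12 libraries, other scalings and filters, the groups compared alone, the replicate number as a block and leaving out each library. The edgeR fit, but not DESeq2 or the permutation tests, was also run on simulated counts, whose outcome is not given here.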

Additional observations from a re-analysis of the deposited data

How the results depend on the processing

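The calls of Ilk and Parva in ByJcl after ADR kept their direction and passed under all 9 other settings and without each of the 11 libraries. That of Pxn passed under 7 of the 9 and without 6 of the 11. Leaving out 1 library gave 0 to 1 members called at Day 5, and 680 to 2056 genes of all tested in ByJcl after ADR, 12 to 29 at baseline, 9 (without Ajcl Day 5 replicate 2) to 218 (without replicate 3) at Day 5, 11 (without Ajcl Day 5 replicate 3) to 180 (without replicate 2) in Ajcl after ADR and 0 to 5 for the unequal response. For the 82 pathway genes it gave 0 to 4 calls at Day 5, 0 to 1 in Ajcl and 6 to 17 in ByJcl after ADR. Calls at Day 5 between substrains were 1 member, 3 pathway genes and 72 of all genes with all 12 libraries, and 3, 10 and 535 with DESeq2, against 28 in the reported fit. DESeq2 called 1 pathway gene and 101 of all at baseline, 2 and 301 in Ajcl after ADR, and 22 of all for the unequal response. Without a filter on low counts, 2 pathway genes and 56 of all were called at Day 5 and 99 of all in Ajcl. With only the groups compared, 15, 6 and 33 of all were called at baseline, at Day 5 and in Ajcl. With all 12 libraries 1197 were called in ByJcl, and the log2FC of Arhgef6 at Day 5 turned to 0.044. The Parvb to Parva ratio (0.59) and the Tln2 to Tln1 ratio (-1.12) passed with all 12 libraries and, at 0.68 and -1.09, without ByJcl baseline replicate 2, and ran from 0.51 to 0.81 and from -1.09 to -0.74 without 1 library. Signs turned without 1 library for Ilk (-0.069 to 0.20), Fermt2 (-0.090 to 0.046), Fblim1 (-0.21 to 0.37) and Nck2 (-0.35 to 0.056) in Ajcl after ADR, for Lims1 (-0.11 to 0.15) and Lims2 (-0.0069 to 0.18) at baseline, for Tln1 (-0.099 to 0.21) and Nck2 (-0.40 to 0.0092) in the unequal response, and for the Lims2 to Lims1 ratio (-0.0070 to 0.080 by time, -0.025 to 0.084 by substrain). None of these was called. The cause was not tested. Same-numbered libraries of different groups correlated between -0.24 and 0.37 (median 0.027) in their deviations from group means. Other pairs ran from -0.42 to 0.34 (median -0.0090). Deviations within groups of 2 or 3 libraries are tied to each other, so this check cannot show whether the numbers pair libraries. With the replicate block 26 genes of all were called in Ajcl after ADR, against 53, and no member call changed.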
